A study of Drosophila melanogaster with 2 samples.

Results

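The Bithorax complex is the cluster of the posterior Hox genes of Drosophila melanogaster, and binding of a tagged protein, CG14965-eGFP, was described along it. The complex was taken as the stretch of 3R from the end of Ubx at 16656623 to the start of Abd-B at 16972236 (genome build dm6, coordinates counted from 1), which is 315.6 kb long. The Ensembl annotation places Ubx, lncRNA:bxd, abd-A, lncRNA:iab8 and Abd-B in that order along it, all on the minus strand, so Abd-B starts at the far border. Every region with its summit in this stretch was a member, whatever its signal. That gave 81 of the 30000 regions of the pooled list, 81 of 30000 in the list of replicate 3 and 68 of 30000 in the list of replicate 4. Of the 1302 peaks in the thresholded list called optimal, 4 lay in the complex. Regions were selected on summit position, but the complex itself was chosen by its signal values, since the strongest peak of the series was known to lie in it. Signal values and ranks are therefore given as a description with no test.

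The study was a chromatin immunoprecipitation with sequencing (ChIP-seq) of whole embryos of pooled sex, 0 to 24 h old, from a transgenic fly line that stably expresses CG14965 with a C-terminal GFP, pulled down with an anti-GFP antibody. The labels give 1 group of 2 biological replicates, numbered 3 and 4, from separate biosamples of the same line, so no conditions can be compared. Whole embryos mix all cell types and segments, and a region bound in few cells cannot be told apart from one bound weakly in many. The labels do not give the promoter that drives the fusion. The control named in the labels and an untagged line were not analysed here. The number of reads behind each list is unknown.

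Ubx, abd-A and Abd-B encode homeodomain transcription factors that give the posterior thoracic and the abdominal segments their identity. Their expression in each segment is set by long regulatory stretches between and within the genes, which are kept apart by boundary elements such as Fub and Mcp, and the insulator protein CTCF is known to bind several of these boundaries. The noncoding RNA of lncRNA:bxd is transcribed from the regulatory stretch upstream of Ubx. That of lncRNA:iab8 runs through the regulatory stretches between abd-A and Abd-B and is the source of the microRNA mir-iab-8. The annotation used here holds no boundary elements, so no region was assigned to one by name.

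The sequence around the summits shows what the strongest regions share and where they differ. The search used the words AGAGGGCGC, AGATGGCGC, AGGGGGCGC and AGGTGGCGC, which match the DNA element of CTCF, on both strands within 50 bp of each summit. Each line gives 101 bases of the plus strand of dm6 centred on a summit of the pooled list, read from the RefSeq genome of Release 6. Capitals mark an exact CTCF word or, in the strongest peak, which has none, each stretch that differs from such a word at 1 base. The list holds the 4 optimal peaks and the next 2 regions by signal value.

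Peak between lncRNA:bxd and abd-A, rank 1, chr3R:16798824-16798924: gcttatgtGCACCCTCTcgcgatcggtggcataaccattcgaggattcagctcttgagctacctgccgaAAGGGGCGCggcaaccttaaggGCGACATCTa
Peak in lncRNA:iab8, rank 90, chr3R:16834783-16834883: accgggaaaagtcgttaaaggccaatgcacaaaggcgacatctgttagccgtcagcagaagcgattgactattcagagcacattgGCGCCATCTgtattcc
Peak near lncRNA:CR44945, rank 212, chr3R:16782512-16782612: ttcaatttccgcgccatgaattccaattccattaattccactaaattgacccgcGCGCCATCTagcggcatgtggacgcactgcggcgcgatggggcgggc
Peak in lncRNA:bxd, rank 824, chr3R:16748672-16748772: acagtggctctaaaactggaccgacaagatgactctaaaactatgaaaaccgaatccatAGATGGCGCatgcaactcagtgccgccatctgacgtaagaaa
Region in Ubx, rank 1589, chr3R:16718122-16718222: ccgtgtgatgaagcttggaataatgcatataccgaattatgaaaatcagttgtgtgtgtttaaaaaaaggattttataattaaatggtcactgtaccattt
Region in lncRNA:iab8, rank 1670, chr3R:16919183-16919283: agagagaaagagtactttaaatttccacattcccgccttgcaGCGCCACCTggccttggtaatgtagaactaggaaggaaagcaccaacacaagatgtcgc

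All 4 optimal peaks lay between the start of Ubx and the start of lncRNA:iab8, in the part of the complex that surrounds abd-A, and none was in Ubx, abd-A or Abd-B. Column 7 of the deposited lists, the authors' signal value, is a score of unstated scale, and rank 1 is the highest value of a list. Optimal peaks were 4 of the 81 pooled members, or 4.94% (95% Wilson interval 1.94 to 12.0%, for the counting of regions only), against 4.34% of all 30000 pooled regions. The share is close to the background. Per 100 kb there were 1.27 optimal peaks in the complex and 0.973 over the chromosome arms. This difference was not tested.

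The strongest peak lay at 3R 16798435 to 16799270, in intergenic sequence between lncRNA:bxd and abd-A, with its summit at 16798874. Its signal value was 8276 in the pooled list, 5133 in replicate 3 and 3188 in replicate 4, and it ranked 1 in each. The second strongest region of each list, on another chromosome arm, had values of 7893, 4829 and 3101. The summits of the replicates, at 16798874 and 16798873, were 1 bp apart. With 836 bp it was the widest region of the pooled list, where 29798 of the 30000 regions have the same width of 436 bp. The genes around it are Glut3, a sugar transporter gene, and the noncoding lncRNA:CR45750, whose transcription start site (TSS) was 1726 bp from the summit. Within 10 kb of this summit the pooled list held 7 regions, itself included, and the next highest had a signal value of 31.8.

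Towards Abd-B, the next peak lay at 3R 16834717 to 16834952, 35.96 kb from the strongest summit. It sits in an intron of lncRNA:iab8 and of MSAmiP, which is annotated as a micropeptide gene on the same strand. Its signal value was 352 in the pooled list, 199 in replicate 3 and 152 in replicate 4. It ranked 90, 93 and 93, so the replicates gave it the same place. The nearest TSS, 4784 bp away, was that of abd-A, and the summits of the replicates were 12 bp apart.

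A peak at 3R 16782556 to 16782664 lay on the other side, in the same intergenic stretch as the strongest. Its signal value was 190 in the pooled list, 113 in replicate 3 and 72.0 in replicate 4, with ranks of 212, 212 and 268. At 109 bp it was much narrower than most regions, while replicate 4 gave it 424 bp, the median width of that list. The nearest TSS was that of the noncoding lncRNA:CR44945, 935 bp from the summit.

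The weakest of the 4, at 3R 16748504 to 16748939, lay in an intron of lncRNA:bxd. Its signal value was 89.6 in the pooled list, 51.7 in replicate 3 and 38.4 in replicate 4, with ranks of 824, 903 and 871. The lowest value in the optimal list was 69.8, so this peak was well inside it. A second pooled region, at 16748711 to 16749146 with a value of 30.2 and a rank of 10018, overlapped it. Replicate 3 had a second region there too, at 16748649 to 16749108 with a value of 28.4. The optimal list holds the pooled regions of highest signal value. In the plot of signal values along the complex, these 4 peaks therefore stand above all other pooled regions by construction.

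**Figure D1:**
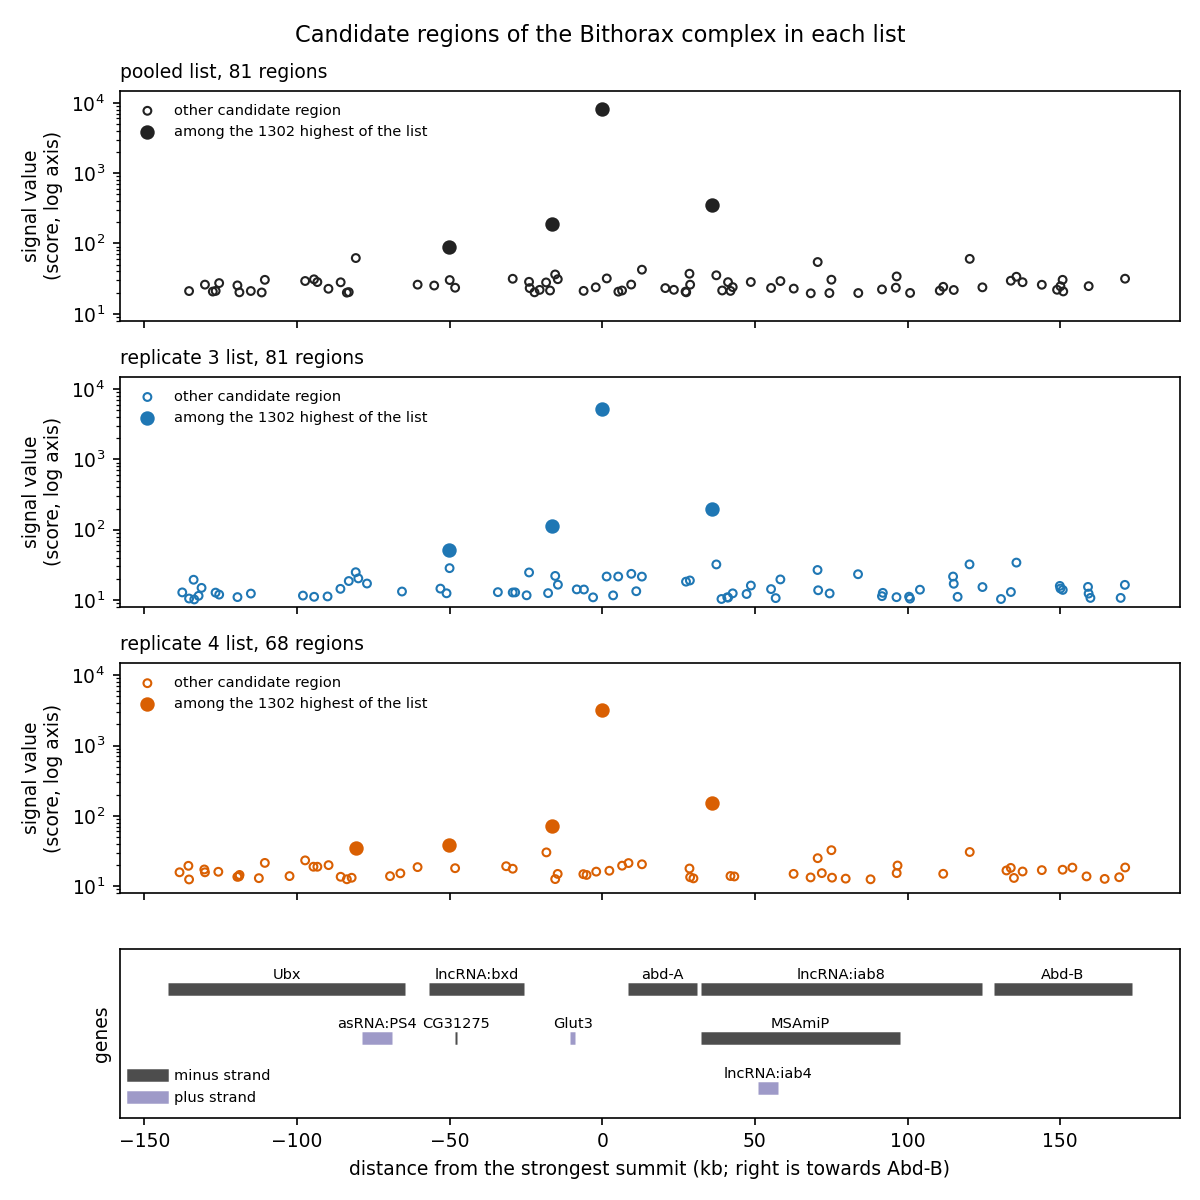
Signal value of every member region (score, log axis) against its distance in kb from the strongest summit, for the pooled list and each replicate, with the genes of the complex beneath. Filled points are among the 1302 highest of their list: 4 in the pooled list, 4 in replicate 3 and 5 in replicate 4, and in each list the region of rank 1 lies at the strongest summit, within 1 bp.

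The other 77 pooled regions had signal values from 19.6 to 62.1 with a median of 24.2, and 60 of them ranked past 10000. The median over all 81 was 24.7, against 26.2 over all 30000 pooled regions. In replicate 3 the medians were 13.9 and 14.5, and in replicate 4 they were 16.1 and 16.3. The median of the complex was thus slightly below that of each list.

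Of the regions that missed the optimal list, the highest lay in an intron of Ubx, the Hox gene of the third thoracic and the anterior abdominal segments. It spans 3R 16717954 to 16718389, with values of 62.1 in the pooled list, 24.8 in replicate 3 and 35.5 in replicate 4. Its rank was 1589 in the pooled list, 4136 in replicate 3 and 1051 in replicate 4. Its counterpart in replicate 4 was the only member region among the 1302 highest of a replicate list that did not belong to an optimal peak. The threshold fell between values of 69.8 and 69.7.

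In lncRNA:iab8, towards Abd-B, a region at 3R 16919015 to 16919450 had values of 60.4, 32.1 and 30.6 in the pooled list, replicate 3 and replicate 4. It ranked 1670, 2271 and 1588, close to each other but below the threshold everywhere. A further intronic region of lncRNA:iab8 and MSAmiP, at 16869218 to 16869653, had values of 54.5, 26.7 and 25.0 in the same order. Its ranks were 2046, 3448 and 3218. Both regions thus had a counterpart in each replicate.

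The gene abd-A, which specifies abdominal segments, held a pair of the 10 highest regions outside the optimal list. The region at 16811660 to 16812095 lay in an intron, with values of 42.4, 21.5 and 20.5 in the pooled list, replicate 3 and replicate 4. The one at 16827225 to 16827660 had its summit in coding sequence, 662 bp from a TSS of abd-A, with values of 37.2, 19.0 and 17.8. Their pooled ranks were 3807 and 5464.

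The remaining 5 of these 10 regions had pooled values from 31.8 to 36.3. One lay 32 bp from the TSS of lncRNA:CR44945, at 16783247 to 16783682, with 36.3 in the pooled list, 22.0 in replicate 3 and 12.6 in replicate 4, where it ranked 28815. A region of introns of lncRNA:iab8 at 16895086 to 16895521 had 34.0, 11.0 and 19.7. The last value is that of the highest overlapping region of replicate 4, at 16895374 to 16895797. Another replicate 4 region, at 16895092 to 16895515, had the same summit as the pooled region and a value of 15.3. The other 3 of the 5 pooled regions had a region in replicate 3 and none in replicate 4. They were an intronic region of lncRNA:iab8 at 16836025 to 16836460 (35.3 in the pooled list and 32.1 in replicate 3), the region nearest to an Abd-B start (33.7 and 34.0) and one at 16800143 to 16800578, 239 bp from the TSS of lncRNA:CR45750 (31.8 and 21.6).

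**Figure D2:**
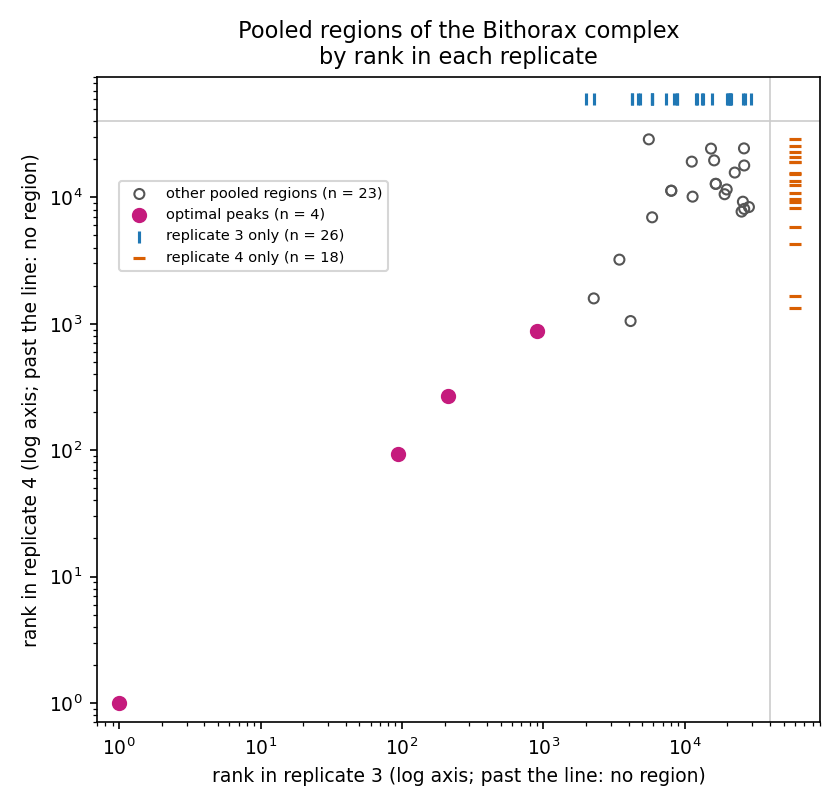
Rank in replicate 3 against rank in replicate 4 (log axes) for the pooled regions of the complex; marks past the grey lines are regions with no overlapping region in the other replicate. The 4 optimal peaks, from a list thresholded on replicate agreement, run along the diagonal, at ranks 1 and 1, 93 and 93, 212 and 268, and 903 and 871. The mark at 903 and 871 also hides the second pooled region there, which matches the same replicate regions.

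Few of the weaker regions recurred in both replicates, as the plot of replicate ranks shows. Of the 81 pooled members, 27 (33.3%) overlapped a region in both replicate lists by at least 1 bp, against 41.6% of all pooled regions. Replicate 3 alone had a counterpart for 26 (32.1%, against 24.7% of all pooled regions) and replicate 4 alone for 18 (22.2%, against 27.5%). Another 10 (12.3%, against 6.11%) had none in either. These differences were not tested. Without the optimal peaks, 23 of 77 (29.9%) were in both, against 39.0% of all pooled regions outside the optimal list. All 4 optimal peaks were in both, as were nearly all 1302 peaks of that list, which was thresholded on replicate agreement. With a reciprocal overlap of at least 50%, 3 of the 4 were, since the peak near lncRNA:CR44945 is 109 bp wide in the pooled list and 424 bp in replicate 4. Spearman's rho between the signal values of the replicates was 0.582 across the 27 regions and 0.323 across the 23. Across all 12488 such pooled regions it was 0.437 and, across the 11195 outside the optimal list, 0.254. Overlapping pooled regions can match the same replicate regions, as both at the lncRNA:bxd peak do. With each such pair of replicate regions counted once, a choice made after seeing the data, rho was 0.559 across 24 regions of the complex and 0.237 across the 20 outside the optimal list. Over all pooled regions these values were 0.421 and 0.192. The pooled list comes from both replicates, so these correlations across regions describe the lists only.

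No Hox promoter of the complex carried an optimal peak. A promoter peak was a summit within 500 bp of a TSS, and 0 of the 4 met this, or 1 of the 4, the peak near lncRNA:CR44945, within 1000 bp. The share of all optimal peaks at a promoter is not given here, so this count is not read as a trait of the complex. From the single annotated TSS of Ubx, at 16734426, the nearest pooled summit was 3989 bp away, in a region of value 26.0 and rank 15245. In replicate 3 the nearest was 1130 bp away (rank 18547) and in replicate 4 it was 1659 bp away (rank 18199). The nearest optimal peak, in lncRNA:bxd, was 14296 bp upstream of this TSS. Ubx therefore had no region of any list within 500 bp of its start.

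For abd-A, with 3 annotated TSSs, the nearest pooled summit lay 438 bp from the TSS at 16828105, in a region of value 26.0 and rank 15287. Replicate 4 had a region there of rank 25100, 437 bp from the TSS, and the nearest of replicate 3, of rank 8022, was 523 bp away. The nearest optimal peak, the one in lncRNA:iab8, was 4784 bp from the outermost abd-A TSS, at 16830049.

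Abd-B, the Hox gene of the most posterior segments, has 6 annotated TSSs, and 1 of them had a pooled summit within 500 bp. That region, at 16934300 to 16934735, lay 276 bp from the TSS at 16934242, in an intron of the longer transcripts. Its value was 33.7 in the pooled list (rank 7346) and 34.0 in replicate 3 (rank 2007). Replicate 4 had no overlapping region, and its nearest, 526 bp from the TSS, ranked 26540. The replicates thus differed here. Each replicate also had weak regions within 500 bp of a further Abd-B TSS: at 16968574 replicate 3 had one at 91 bp (rank 27463) and replicate 4 one at 389 bp (rank 25142), and at 16963641 replicate 4 had one at 215 bp (rank 28398). At the outermost TSS, 16972236, the nearest summits were 2132 bp away in the pooled list, 2187 bp in replicate 3 and 2088 bp in replicate 4. No optimal peak lay anywhere in Abd-B, and the nearest one to it was 14402 bp beyond its outermost TSS, in the gene CG18622 (signal value 107 in the pooled list, rank 600).

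For the noncoding genes, 0 of the 3 TSSs of lncRNA:bxd and 3 of the 8 of lncRNA:iab8 had a pooled summit within 500 bp. The peak inside lncRNA:bxd was 2336 bp from the TSS at 16746386, where replicate 3 had a nearer summit at 506 bp (rank 15053). From the TSS of lncRNA:bxd at 16752209 the nearest pooled summit was 1510 bp away (rank 19786), and from that at 16773189 it was 1717 bp away (rank 11837). The main start of lncRNA:iab8, at 16923231, had a pooled summit at 158 bp (value 23.8, rank 19156) and a replicate 3 summit at 178 bp (15.3, rank 13375). In replicate 4 the nearest was 3998 bp away. The start at 16899832 had a pooled summit at 127 bp that ranked 29008. None of the starts of either gene was near a strong region.

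Candidate regions were densest in the stretch that holds the strongest peak. Between lncRNA:bxd and abd-A, a stretch of 34 kb, the pooled list held 15 regions, or 4.41 per 10 kb, against 2.24 over the chromosome arms. Replicate 3 had 13 there (3.82 per 10 kb) and replicate 4 had 10 (2.94). Ubx, the first gene of the span, held 18 pooled regions over 77.8 kb (2.31 per 10 kb). Replicate 3 had 19 in Ubx and replicate 4 had 22 (2.83 per 10 kb). Over the 92.1 kb of lncRNA:iab8 there were 23 pooled regions (2.50 per 10 kb), 25 of replicate 3 and 15 of replicate 4. Abd-B held 10, 11 and 11, at 2.22 per 10 kb in the pooled list. The gene abd-A held 8, 5 and 5, at 3.50 per 10 kb in the pooled list and 2.19 in each replicate. The gene lncRNA:bxd held 5, 7 and 4, at 1.61 per 10 kb in the pooled list, below the arms. Overlapping entries were each counted in these densities. Merged, the 81 pooled members give 75 regions and all 30000 pooled regions give 26682. Such entries lie, among others, in abd-A, at 16825951 to 16826600 and 16827225 to 16827884. Between lncRNA:bxd and abd-A they lie at 16774688 to 16775338. In all, 57 of the pooled summits lay in introns, 16 in intergenic sequence, 4 in coding sequence, 3 in exons of noncoding genes and 1 in an untranslated part of a coding gene. These counts were not set against the share of the span that is intron, or against all pooled regions.

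**Figure D3:**
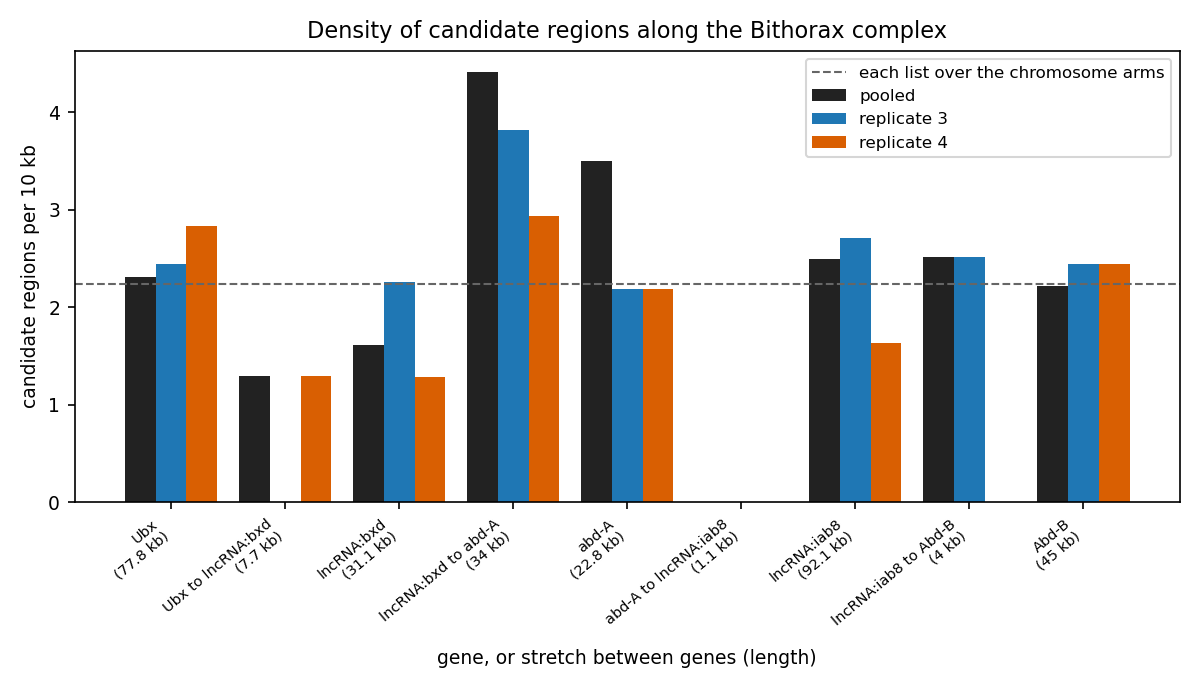
Candidate regions per 10 kb in each gene and each stretch between the named genes, for the pooled list and both replicates; the dashed line is the density over the chromosome arms (2.24 per 10 kb, the same for each list). The stretch from lncRNA:bxd to abd-A is above the line in each list (4.41, 3.82 and 2.94), and the short stretch between abd-A and lncRNA:iab8 holds no region.

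Of the 4 optimal peaks, 3 had the CTCF word AGATGGCGC within 50 bp of the summit, and the strongest peak did not. The word was centred 8 bp from the summit of the peak near lncRNA:CR44945, 13 bp from that in lncRNA:bxd and 39 bp from that in lncRNA:iab8. Among all 1302 optimal peaks, 42 (3.23%) had this word and 77 (5.91%) had any of the 4 CTCF words. Among the 250 strongest optimal peaks, 16.8% had any. Outside the optimal list 138 of 28698 pooled regions (0.481%) had any. The 3 peaks held places 31, 42 and 67 by signal value among the 77 optimal peaks with a CTCF word. The words were searched with earlier results of these data known, so the counts stand as a description.

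The strongest peak had none of the 4 words in all its 836 bp. Near its summit were 3 sequences 1 base away from a CTCF word. They were AGATGTCGC (G6T, compared with AGATGGCGC), AAGGGGCGC (G2A, compared with AGGGGGCGC) and AGAGGGTGC (C7T, compared with AGAGGGCGC), with positions counted from 1 at the 5′ end of the word. Their centres were 45 bp, 23 bp and -38 bp from the summit. Of all 1302 optimal peaks, 164 (12.6%) had a CTCF word or such a sequence, as had 6.66% of the 30000 pooled regions. An exact word was near the summit of 24 of the 50 strongest optimal peaks (48%), 31 of the 100 strongest and 42 of the 250 strongest (16.8%). The share with a word thus rose towards the top of the list, where many peaks still had none.

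With the summits of a single replicate, 2 of the peaks had the word within 50 bp. In replicate 3 the summit in lncRNA:bxd lies 43 bp from the pooled one, and in replicate 4 that in lncRNA:iab8 lies 14 bp away, which puts the word outside the window. The word itself was inside the called region of all 3 peaks in both replicates.

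Among the 77 weaker pooled regions, 3 (3.90%) had a CTCF word within 50 bp. The intronic region of lncRNA:iab8 that ranked 1670 had AGGTGGCGC centred 4 bp from its summit. The others, with AGAGGGCGC at 16857202 to 16857210 and AGGGGGCGC at 16882717 to 16882725, were also in lncRNA:iab8 and ranked 11047 and 29168 in the pooled list. Regions with a word thus ranked from 90 to 29168 in the pooled list. The region of rank 2046 also held an exact word, AGGGGGCGC, centred -85 bp from its pooled summit and so outside the window. With the replicate 3 summits this word was inside the window, and that of the region of rank 1670 was not. The intronic region of Ubx, the highest that missed the optimal list, had neither a word nor a sequence 1 base away.

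**Figure D4:**
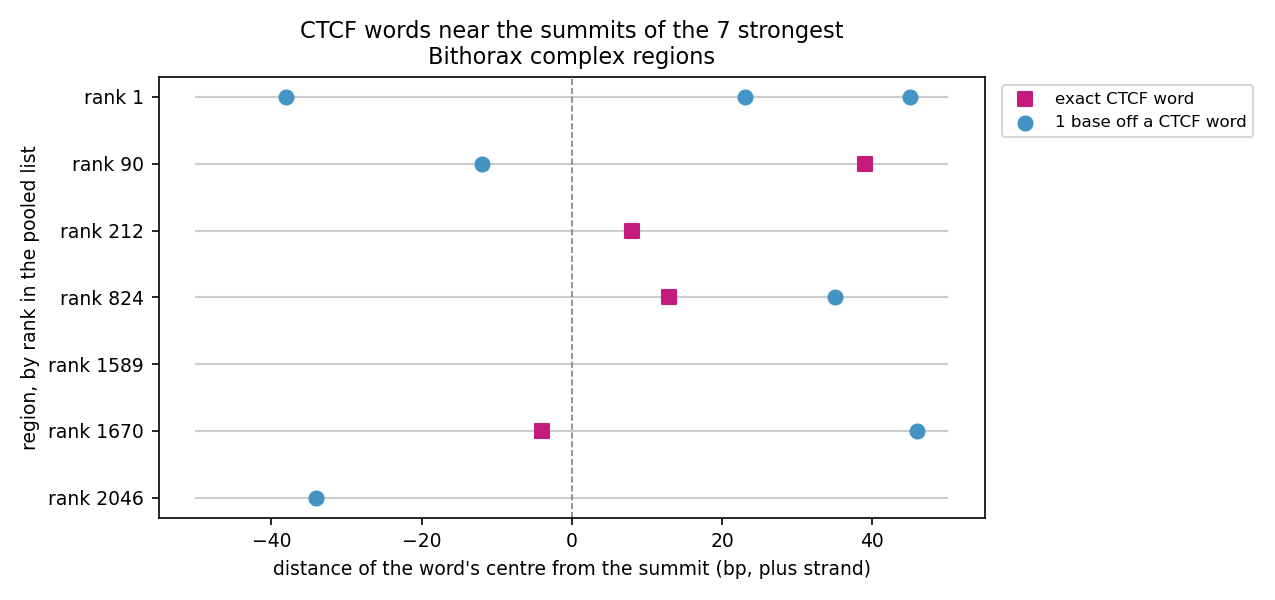
Centre of each exact CTCF word (squares) and each sequence 1 base off such a word (circles) within 50 bp of the summit, for the 7 pooled regions of highest signal value in the complex, by rank. Positions are in bp from the summit, and an exact word of the region of rank 2046, at -85 bp, is not shown. Exact words lie at 39, 8, 13 and -4 bp in the regions of rank 90, 212, 824 and 1670, the region of rank 1 has only sequences 1 base off, and that of rank 1589 has neither.

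Words of other factors were searched in the same windows. The word GAGAG of the GAGA factor was at 1 of the 4 optimal peaks, the strongest, and at 12.2% of all optimal peaks. GCCAT, the core of the element of the Polycomb recruiter Pho, was at 3 of the 4 and at 19.4% of all, but its complement lies within AGATGGCGC, so each of these 3 has it through the CTCF word. The peaks of rank 212 and 824 have a further GCCAT outside that word. CAGGTAG, the word of the early embryonic activator Zelda, was at the strongest peak and at 6 of all 1302 optimal peaks (0.461%). None of the 4 had TATCGATA of the factor DREF, CGATA of the insulator protein BEAF, CCAATAAG of the Elba complex or CCAATTGG of the protein Insensitive. The mean GC content of the windows was 52.0% in the 4 peaks, 38.1% in all optimal peaks and 45.2% in all pooled regions.

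The Antennapedia complex, the other Hox cluster on the same arm, differed in how its peaks were spread. Its span, from lab to Antp, is 337.8 kb long and held 91 pooled regions, 7 of them optimal, at pooled ranks of 32, 42, 50, 71, 1142, 1180 and 1271. The highest value was 1131, in an intron of Antp, against 8276 in the Bithorax complex. None of the 7 had a CTCF word near its summit, against 3 of 4 in the Bithorax complex and 5.91% of all 1302 optimal peaks. Per 100 kb the optimal peaks numbered 2.07 against 1.27. These differences were not tested.

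At the borders the nearest regions on either side were weak. Inside the Ubx border the nearest pooled region had a value of 21.1, 6944 bp from it, and outside it one of 35.4 lay 200 bp beyond. At the Abd-B border the values were 31.6 inside, at 2132 bp, and 35.1 outside, at 6747 bp. With 10 kb added on each side the count of optimal peaks was also 4. The nearest optimal peak outside, in CG18622, lay 14402 bp beyond the Abd-B border.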

How the data were processed

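Anti-GFP ChIP-seq peak lists of CG14965-eGFP embryos were used on dm6 as deposited: a list for each of replicates 3 and 4, the list of both pooled, and the optimal list. Per the text records deposited with the samples, each list came from the alignments and 1 further file, and the optimal list, thresholded by the irreproducible discovery rate, from the 3 others. The sources used here name no peak caller or aligner. The signal value (column 7) is the authors' score, with no scale given. The −log10 significance that the authors deposited in column 9 only broke ties. Summits are the region start plus the deposited offset. The optimal list holds exactly the 1302 pooled regions of highest signal value. The dm3 lists were not used.

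Regions were matched between lists by at least 1 bp, taking the partner of highest signal value. TSSs and genes came from Ensembl, without transposable elements. Words were counted with Python 3.11.15 and pysam 0.24.0, and intervals with scipy 1.17.1. Word search and matching were tested on simulated regions. The members, words and comparisons were chosen with earlier results of these data known, and no test was run. Regions named singly were the optimal peaks, the next 10 pooled regions, the region nearest each TSS of the listed genes and members high in 1 replicate only.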

Additional observations from a re-analysis of the deposited data

How the results depend on the processing

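No paired analysis was possible because all samples belong to 1 group. The sequence allowing 1 base off a CTCF word was chosen after seeing the data and gave 4 of 4 optimal peaks, against 3 with exact words, and 2 with the summits of either replicate alone. Among the 651 highest of the list, 3 optimal peaks lay in the complex, or 3.70% of the pooled members. That setting takes 651 of the 30000 pooled regions, so its background share is below 4.34%. Among the 1302 highest of replicate 4 alone there were 5 members (7.35%), against 4.34% of that list. Of these 5, the intronic region of Ubx was no optimal peak. These were the lowest and highest shares of the settings. Within 1000 bp of a TSS there was 1 promoter peak, against 0. The median signal value was 13.9 with replicate 3 alone and 16.1 with replicate 4 alone, against 24.7 in the pooled list. Over all regions of these lists the medians were 14.5, 16.3 and 26.2, so the whole lists differed in the same way. The cause was not tested. Candidate regions per 100 kb ran from 21.5 to 27.7, against 25.7. The lists give no reads, so depth limits could not be set.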

Other observations

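The word AGATGTCGC, chosen after the sequences of the strongest regions had been seen, lay within 50 bp of the summit of 3 pooled regions of the complex: the strongest peak, the peak in lncRNA:iab8 of rank 90 and the lncRNA:iab8 region of rank 1670. It differs from the CTCF word AGATGGCGC by G6T, counted from 1 at the 5′ end. Over the whole series it was near the summit of 34 of the 30000 pooled regions (0.113%) and 8 of the 1302 optimal peaks (0.614%). Of these, 2 optimal peaks lay in the Bithorax complex. The count describes a word picked from these same regions and was not tested.

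A pair of regions, chosen after their values were seen, ranked high in the list of replicate 4 without a counterpart in that of replicate 3. The region at 3R 16873722 to 16874145, in introns of lncRNA:iab8 and MSAmiP, had a signal value of 32.5 and a rank of 1337 in replicate 4. That at 16780379 to 16780802, between lncRNA:bxd and abd-A, had 30.3 and a rank of 1655. Neither overlapped a region of replicate 3, and both overlapped a pooled region, of rank 9710 and 12529. In the other direction, replicate 3 regions at 16934294 to 16934753 (rank 2007) and 16836021 to 16836480 (rank 2290) overlapped no region of replicate 4. Pooled members with a counterpart in replicate 4 only were 22.2%, against 27.5% of all pooled regions.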
